A study of Arabidopsis thaliana with 24 samples.

Results

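The genes flanking CPC on chromosome 2 of Arabidopsis thaliana were compared between lines with and without the cpc label, to see which neighbours set the cpc-labelled arrays apart. CAPRICE (CPC, AT2G46410) encodes a small single-repeat MYB protein that promotes hair cell fate in the root epidermis, and it moves from non-hair cells to hair cells, where it opposes the MYB and bHLH complex that specifies the non-hair fate. When a mutant allele is crossed between strains, the chromosome segment around it travels with it until recombination breaks it up, so that neighbours of the mutated gene can carry sequence differences that act on their own transcripts or on how an array probe binds them. The members were all measured locus codes from AT2G45500 to AT2G47000, leaving out CPC itself and 2 codes, AT2G46790 and AT2G46830. They numbered 135 of the 21440 genes measured, 84 with codes below CPC and 51 above it. The rule used position, not function.

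Each of 8 lines gave 3 arrays, described by the labels as biological replicates, 24 in all. One line was a cpc-1 single mutant and one a cpc-1 ttg2-1 double mutant, and the 6 others were wer-1, ttg2-1, try-82, myb23-1, gl3-1 and egl3-1 single mutants. All 8 also held the WER::GFP reporter, a green fluorescent protein under the WEREWOLF promoter, which marks the developing root epidermis and the lateral root cap. Seedlings were 5 days old, the last 2 mm or so of each root tip was taken, and fluorescent cells were sorted from the digested tissue. Wild type was not analysed here, so the reference for the 2 lines with a cpc label is the mean of the 6 other mutant lines (egl3, gl3, myb23, try, ttg2 and wer). The accession in which each allele arose is not given in the sources used here. In sorted populations, fewer cells of a type and less RNA per cell cannot be told apart.

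All levels are the authors' deposited log2 values, and differences are log2 differences between line means. A gene was called when its adjusted p was under 0.05 in limma, with Benjamini-Hochberg adjustment over all 21440 genes, and separated when all arrays of one side lay above, or all below, all arrays of the other side. Of the members, 96 had a mean level of at least 5 and 39 a lower one, where differences are compressed and no detection call was available.

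CPC itself was read first, as a check of the labels. It stood at 10.42, 9.60 and 9.62 in the 3 cpc arrays and at 10.18, 10.01 and 9.76 in the 3 arrays labelled cpc ttg2. The 18 other arrays ran from 9.40 to 11.25 with a median of 10.82. The 2 lines together were lower by a difference of -0.72 ± 0.18 (SE, adjusted p = 0.0042, limma), but the groups overlapped, since wer stood at 9.85 ± 0.71 (SD, n = 3). The TTG2 transcript was 8.25 ± 0.54 in the cpc ttg2-labelled arrays and 4.35 ± 0.44 in ttg2, although both lines carry the ttg2-1 label, so the line is called here by its label only. The arrays labelled cpc ttg2 also stood apart over the whole series: their 3 arrays lay outside the range of the 21 others for 9.68% of all genes, where the cpc arrays did so for 0.382%.

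As list means, the markers of epidermis and root cap stood above those of ground tissue and stele in every array. The mean over 5 epidermal markers (WER, GL2, RHD6, COBL9 and EXP7) ran from 8.82 to 10.45 over the 24 arrays and the mean over 4 root cap markers (SMB, BRN1, BRN2 and FEZ) from 8.32 to 9.73. The mean over 3 ground tissue markers (SCR, CASP1 and MYB36) was 4.50 to 5.91 in cpc, 5.36 to 6.42 in the cpc ttg2-labelled arrays and 3.99 to 5.58 in the 18 others. For 3 stele markers (SHR, APL and SUC2) the ranges were 4.01 to 4.48, 4.93 to 5.14 and 4.0 to 5.17. Single markers overlapped between the lists. GL2 fell to 5.90 and FEZ to 4.96, while CASP1 reached 7.62 and SUC2 7.23. Between the 2 cpc-labelled lines and the 6 others, 2 of 3 ground tissue markers and 1 of 3 stele markers were higher, 1 of 5 epidermal markers was higher and 3 lower, and 1 of 4 root cap markers was lower. The array control for 25S rRNA was 10.9 to 11.2 in the cpc ttg2-labelled arrays, 8.04 to 9.72 in cpc and 8.43 to 11.3 in the others. In the same order, the 3′ minus 5′ difference of actin was 5.35 to 6.14, 4.80 to 5.26 and 4.21 to 6.09. The median level of each array was 6.47 to 6.52 in the cpc ttg2-labelled arrays, below every other array (6.58 to 6.77 in cpc and 6.63 to 6.91 in the others). The part of these in the results below was not tested.

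Between the 2 cpc-labelled lines together and the 6 other lines, 22 flanking genes were higher and 31 lower, which is 53 of 135 or 39.3%. The background over all genes was 35.7%, with 15% higher and 20.7% lower, so the flanking genes were called about as often as genes anywhere. Their median difference was 0.08, against 0.03 over all genes, and the differences ran from -1.23 to 1.41. With each array centred on its median, 41 members were higher and 18 lower, and the median over all genes moved to 0.20, so the split between higher and lower calls depends on the scaling. Without cpc replicate 3 the count was 34, and the share over all genes 23.1%. In the 24 runs that each left out 1 array, 29 of the 53 were called every time.

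The cpc line by itself gave 4 called members, 2 higher and 2 lower (2.96%, where the background was 1.94%). These were AT2G45820 and DTA2, which were higher (background 0.993%), and AT2G46490 and AT2G46580, which were lower (background 0.951%). The count was 1 without cpc replicate 2 or without cpc replicate 3 (0.919% and 0.462% of all genes), and 4 in a fit without the cpc ttg2-labelled arrays (background 1.81%). With array weights, whose estimate did not converge, it was 39, beside 24.2% of all genes. The arrays labelled cpc ttg2 gave 26 higher and 22 lower members, or 48 in all (35.6%, background 39.6%, with 17.6% higher and 22% lower), and 50 in a fit without the cpc arrays (background 40.9%). Both comparisons use the same 6 control lines. As the plot of differences in gene order shows, called members lay along the whole stretch in the cpc ttg2-labelled arrays and at 4 places in cpc. The adjustment sets an unlike cutoff in each comparison, so 4 and 48 are not on one scale. Before adjustment, 35 of 135 members had p under 0.05 (limma) in cpc, beside 3666 of all 21440 genes. In the cpc ttg2-labelled arrays 62 members did so, beside 10473 of all genes. The difference between these shares was not tested.

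**Figure D1:**
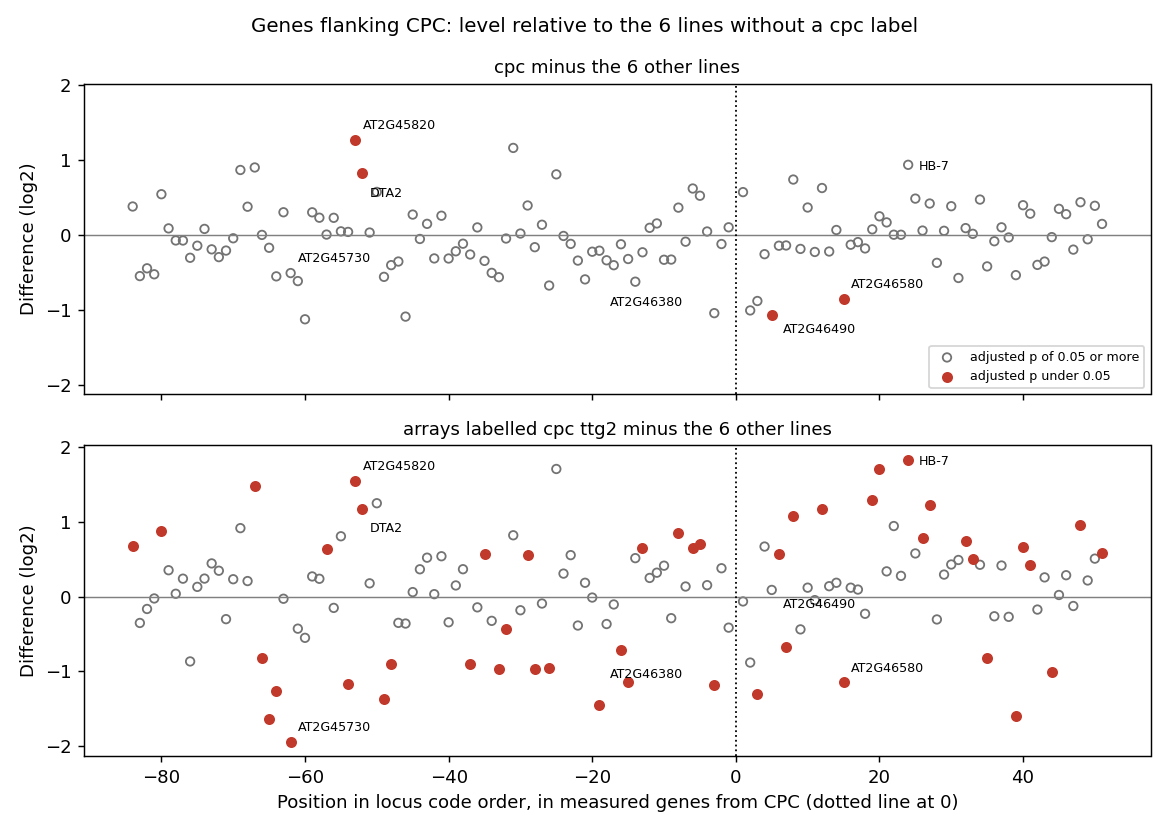
Difference in log2 level from the 6 lines without a cpc label for each of the 135 flanking genes, in order of locus code (x axis, measured genes from CPC), for cpc (top) and the cpc ttg2-labelled arrays (bottom). Filled points are the 4 and 48 genes with an adjusted p under 0.05. AT2G45820 and DTA2 lie side by side and are high in both panels.

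The share called was also near that of other stretches. Of 129 genes at the same code offsets around TRY on chromosome 5, 34.9% were called in the comparison of both lines with the 6 others, and of 122 genes around MYB23 38.5%, against 34.6% for the 3356 genes of chromosome 2 outside the window. For cpc alone these shares were 5.43%, 5.74% and 2.09%, and for the cpc ttg2-labelled arrays 37.2%, 45.9% and 38.1%. TRY and MYB23 are themselves mutated in the try and myb23 lines, which are among the 6 reference lines, so the stretches around them are not neutral references. TTG2 (AT2G37260) lies on the rest of chromosome 2, at position -792 in measured genes from CPC. The ttg2-1 label is carried by ttg2, a reference line, and by cpc ttg2. The rest of chromosome 2 is therefore not a neutral reference either. These shares are descriptions, and their differences were not tested.

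**Figure D2:**
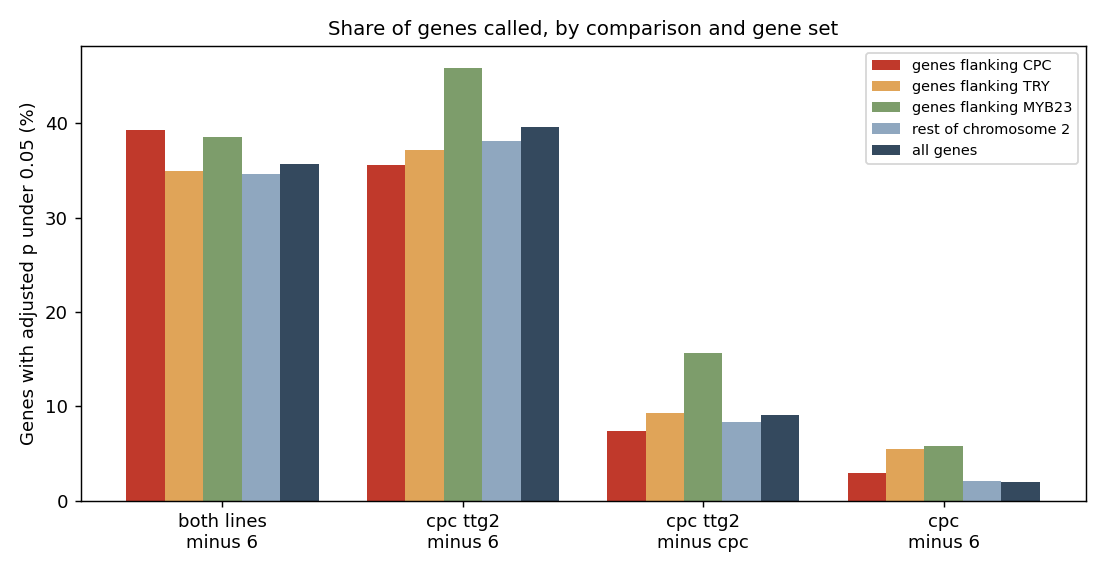
Percentage of genes with an adjusted p under 0.05 (y axis) in 4 comparisons (x axis), for the 135 genes flanking CPC, stretches of the same code width around TRY and MYB23, the rest of chromosome 2 and all 21440 genes. The flank of CPC stands at 39.3%, 35.6%, 7.41% and 2.96%, beside 35.7%, 39.6%, 9.1% and 1.94% for all genes.

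Full separation was rarer and picked out 3 members: AT2G45820, DTA2 and PAP14, all higher in the 6 cpc-labelled arrays than in each of the 18 others. That is 2.22% of the members, where 0.415% of all genes (89 genes) were separated, 0.317% on the higher and 0.0979% on the lower side. The same reading gave 1 gene around TRY (0.775%), 3 around MYB23 (2.46%) and 20 on the rest of chromosome 2 (0.596%). The limits given above for the stretches around TRY and MYB23 and for the rest of chromosome 2 hold here too. Members separated in all 6 arrays are by definition also separated in each line alone. With the cpc arrays alone set against the 18 others, no member was added to these 3 (background 1.04%). The arrays labelled cpc ttg2 alone were separated from the 18 others at 20 members, these 3 among them, with a background of 14.8%.

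AT2G45820, which has no symbol in the annotation used here, had the largest difference of all members on the higher side. It stood at 11.27, 11.30 and 11.54 in the cpc arrays and at 11.69, 11.60 and 11.64 in the cpc ttg2-labelled arrays, while the 18 others ran from 9.10 to 11.10 with a median of 10.17. The gap between the groups was narrow, and the array nearest to it was gl3 replicate 1. The difference was 1.41 ± 0.14 (SE, 2.66-fold, adjusted p = 1.71e-06, limma), with 1.27 ± 0.18 for cpc (adjusted p = 0.000346) and 1.55 ± 0.18 for the cpc ttg2-labelled arrays (adjusted p = 7.53e-06). AT2G45820 was also 1 of 3 members that differed among the 6 lines without a cpc label (F test, adjusted p = 0.00436, limma). There its line means ran from 9.41 ± 0.29 in egl3 and 9.49 ± 0.27 in try to 10.77 ± 0.21 in myb23 (SD, n = 3), so its level also varied where no cpc allele was labelled.

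DTA2 (AT2G45830), named in the annotation as a downstream target of the MADS-domain factor AGL15, is the next gene, with 0 annotated genes between it and AT2G45820. It stood at 6.79, 6.81 and 6.76 in cpc and at 6.98, 7.31 and 7.12 in the cpc ttg2-labelled arrays, and the 18 others ran from 5.42 to 6.54 with a median of 5.95. All 6 arrays were thus above all others, and the 3 cpc arrays lay close together (6.79 ± 0.03, SD, n = 3). The difference was 1.00 ± 0.15 (SE, adjusted p = 0.000115, limma), a 2-fold higher level, with 0.82 ± 0.20 in cpc (adjusted p = 0.0325) and 1.17 ± 0.20 in the cpc ttg2-labelled arrays (adjusted p = 0.000161). Among the 6 other lines DTA2 did not pass the F test (adjusted p = 0.823). The difference between the 2 cpc-labelled lines was 0.35 ± 0.26 for DTA2 (95% interval -0.19 to 0.89) and 0.27 ± 0.23 for AT2G45820 (-0.21 to 0.76), and neither was called.

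PAP14 (AT2G46880), a purple acid phosphatase gene, was separated at a low level. It stood at 3.70, 3.63 and 3.76 in cpc and at 3.81, 4.0 and 3.71 in the cpc ttg2-labelled arrays, against 3.21 to 3.63 in the others with a median of 3.43. The lowest cpc array and the highest of the 18 others were nearly level (3.633 and 3.626). The difference of 0.35 ± 0.08 (SE, adjusted p = 0.00332, limma) ended as a call with quantile normalization (adjusted p = 0.148), where PAP14 was no longer separated either, and cpc alone was at 0.28 ± 0.11 (adjusted p = 0.202).

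With 1 array allowed on the wrong side, 3 further members appeared, all lower: AT2G46380, AT2G46580 and KPHMT1. This made 6 of 135 members, where 2.33% of all genes met the same reading. AT2G46380, 3 measured genes below CPC, stood at 4.82, 5.09 and 4.38 in cpc and at 4.73, 4.81 and 4.36 in the cpc ttg2-labelled arrays. The 18 others ran from 4.62 to 6.78 with a median of 5.88, and 1 of them, ttg2 replicate 2, lay among the low arrays. The difference was -1.11 ± 0.21 (SE, adjusted p = 0.000611, limma), from -1.05 ± 0.27 in cpc (adjusted p = 0.0529) and -1.18 ± 0.27 in the cpc ttg2-labelled arrays (adjusted p = 0.00227). Without the ttg2 line AT2G46380 was fully separated, as was AT2G46040, which made 5 members (background 0.868%).

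AT2G46580, 15 measured genes above CPC, was at 7.04, 7.46 and 7.28 in cpc and at 7.10, 6.93 and 6.87 in the cpc ttg2-labelled arrays. The 18 others ran from 7.22 to 9.06 with a median of 8.13, and the overlap came from 1 wer array. The difference was -1.0 ± 0.15 (SE, adjusted p = 0.00012, limma), and it was called in cpc (-0.85 ± 0.20, adjusted p = 0.0278) as in the cpc ttg2-labelled arrays (-1.15 ± 0.20, adjusted p = 0.000204). The 3 try arrays were higher than the 21 others for this gene (8.90 ± 0.16, SD, n = 3), 1 of the 2 such cases outside the cpc ttg2-labelled arrays. The other was AT2G46200 in egl3 (8.51 ± 0.08). KPHMT1 (AT2G46110), a ketopantoate hydroxymethyltransferase of pantothenate synthesis, was at 5.86, 5.15 and 4.77 in cpc and at 5.15, 4.87 and 4.92 in the cpc ttg2-labelled arrays, against 5.26 to 6.68 in the others, a difference of -0.82 ± 0.19 (adjusted p = 0.00319, limma). Here 1 cpc array lay within the range of the other lines.

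**Figure D3:**
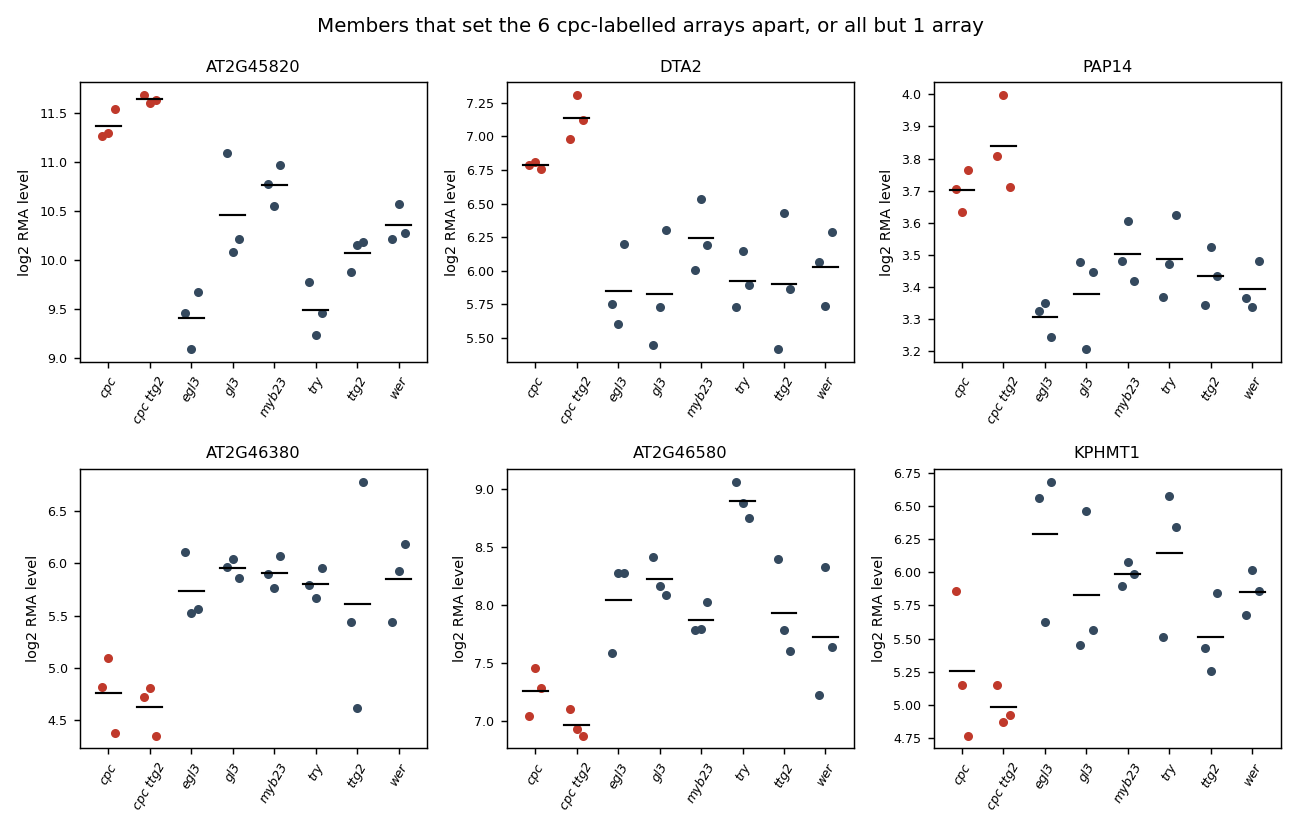
log2 RMA level (y axis, a separate range per panel) of 6 members in each of the 24 arrays, by line (x axis); points are arrays, bars are line means, and the 2 cpc-labelled lines are in red. AT2G45820, DTA2 and PAP14 lie above all 18 other arrays in the red groups, and AT2G46380, AT2G46580 and KPHMT1 lie below them once 1 array is set aside.

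The nearest neighbours of CPC did not form a block with a common direction. Of the 5 measured genes on each side, 1 was higher in the 2 cpc-labelled lines, 4 were lower and 5 did not pass. Within 10 measured genes, 4 of 10 below and 5 of 10 above CPC were called, where the background was 35.7%. None of these 20 was fully separated (background 0.415%), and the closest separated member, PAP14, was 41 measured genes away.

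On the lower side of CPC, WRKY46 (AT2G46400), a WRKY transcription factor gene and the next gene to CPC, ran from 9.34 to 10.53 in the 6 cpc-labelled arrays and from 8.03 to 11.31 in the others. Its difference was -0.16 ± 0.29 (95% interval -0.75 to 0.44, adjusted p = 0.69, limma). SDH8 (AT2G46390), a subunit of mitochondrial succinate dehydrogenase, differed by 0.13 ± 0.15 (-0.18 to 0.44, adjusted p = 0.515) and AT2G46375 by 0.10 ± 0.10 (-0.11 to 0.31, adjusted p = 0.439). JAR1 (AT2G46370), the enzyme that joins jasmonic acid to isoleucine to make the active hormone, was higher. It stood at 10.46, 10.26 and 10.67 in cpc and at 10.71, 10.56 and 10.65 in the cpc ttg2-labelled arrays, against 9.02 to 10.61 in the others with a median of 9.95, so the groups overlapped. The difference was 0.61 ± 0.14 (SE, 1.53-fold, adjusted p = 0.00302, limma).

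On the higher side, AT2G46420 differed by 0.25 ± 0.27 (95% interval -0.31 to 0.82, adjusted p = 0.475, limma) and GAUT2 (AT2G46480), named as a galacturonosyltransferase, by 0.21 ± 0.25 (-0.31 to 0.73, adjusted p = 0.533). CNGC12 (AT2G46450), a cyclic nucleotide-gated ion channel with a role in pathogen responses, was lower by this test (-0.95 ± 0.32, adjusted p = 0.0281). Its cpc arrays were at 4.39, 6.08 and 6.52 and those labelled cpc ttg2 at 5.43, 5.16 and 6.79, against 5.37 to 8.04 in the others, a wide overlap. The call for CNGC12 ended when cpc replicate 1, or replicate 1 or 2 of cpc ttg2, was left out (adjusted p up to 0.107), and under both other scalings. The closely related CNGC11 lies next to it and was not measured, and the probes may not tell their transcripts apart. OXA1L (AT2G46470), named as like the inner membrane protein OXA1, was at 7.54, 6.88 and 5.55 in cpc and at 6.65, 6.39 and 5.68 in the cpc ttg2-labelled arrays, against 6.82 to 8.16, a difference of -1.09 ± 0.22 (adjusted p = 0.000975). Among the 6 other lines ttg2 had the lowest mean of OXA1L (6.86 ± 0.06, SD, n = 3).

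AT2G46490, the fifth measured gene above CPC, split the 2 cpc-labelled lines. It stood at 8.26, 7.41 and 7.22 in cpc and at 8.70, 8.95 and 8.71 in the cpc ttg2-labelled arrays, where the 18 others ran from 8.18 to 9.35 with a median of 8.63. The difference from the 6 other lines was -1.07 ± 0.24 in cpc (SE, adjusted p = 0.0223, limma) and 0.09 ± 0.24 in the cpc ttg2-labelled arrays (adjusted p = 0.783), and the difference between the 2 lines was 1.16 ± 0.31 (adjusted p = 0.027). cpc replicate 1 lay within the range of the other lines, so AT2G46490 was not separated. Its difference for both lines together, -0.49 ± 0.18, was called (adjusted p = 0.0403, limma) but not in 12 of the 24 runs that left out 1 array, nor under the other scalings.

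**Figure D4:**
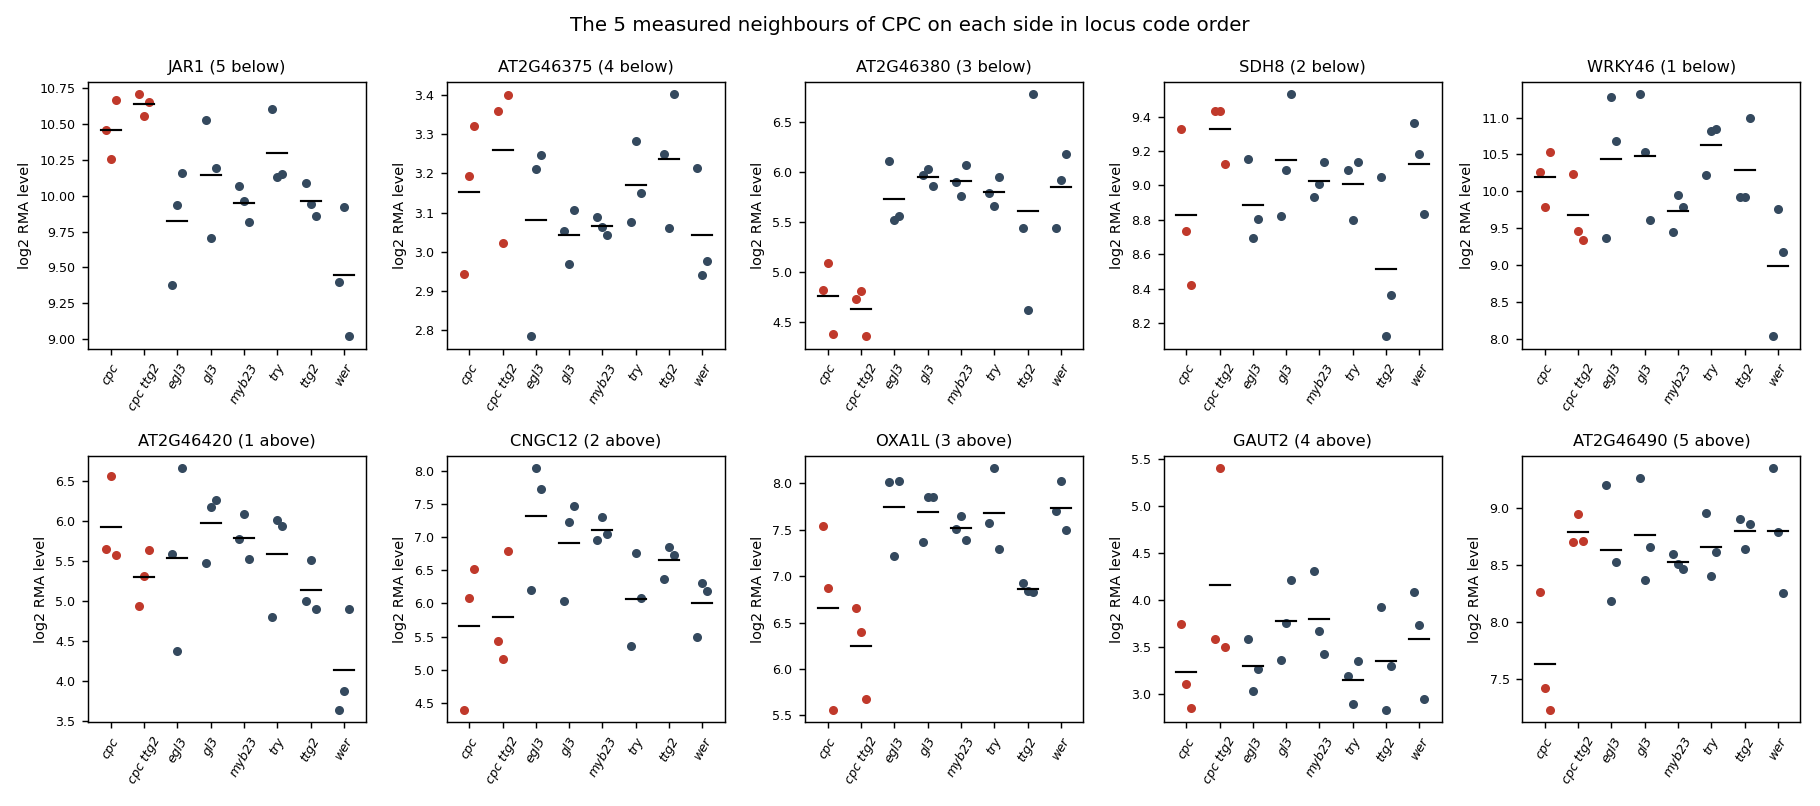
log2 RMA level (y axis, a separate range per panel) of the 5 measured genes on each side of CPC in the 24 arrays, by line (x axis); points are arrays, bars are line means, and the 2 cpc-labelled lines are in red. AT2G46380 and OXA1L are low in both red groups, AT2G46490 only in cpc, and JAR1 is high in both.

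Of 17 listed transcription factor genes in the stretch, 15 were measured, and 5 were higher, 0 lower and 10 did not pass in the 2 cpc-labelled lines together (33.3% called, where the background was 35.7%, with 15% higher and 20.7% lower). The median difference of these 15 was 0.45, beside 0.03 over all genes. With centred arrays 9 were higher and 0 lower, and the medians were 0.63 and 0.20. Several of these factors, such as AGL6, ARF11, DAG2 and NST1, had a mean under 5. The median over all genes itself depends on such dim genes, and was -0.12 with genes of a mean under 5 left out. HB-7 (AT2G46680), a homeodomain-leucine zipper factor induced by abscisic acid and drought, stood at 7.03, 7.26 and 8.31 in cpc and at 9.08, 8.21 and 8.01 in the cpc ttg2-labelled arrays, against 5.36 to 8.38 in the others with a median of 6.46. The groups overlapped, and the difference was 1.38 ± 0.35 (SE, 2.61-fold, adjusted p = 0.00488, limma). TCP9 (AT2G45680), a TCP-domain factor, was 1.19 ± 0.26 higher (adjusted p = 0.0017), at 6.66, 5.55 and 5.88 in cpc and 6.87, 6.94 and 6.03 in the cpc ttg2-labelled arrays, against 4.39 to 6.4. AIB (AT2G46510), a bHLH factor that represses jasmonate responses and responds to abscisic acid, was 0.91 ± 0.25 higher (adjusted p = 0.00934).

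AGL20 (AT2G45660), better known as the flowering-time regulator SOC1, was 0.89 ± 0.28 higher (adjusted p = 0.0196, limma), and its ttg2 level (5.84 ± 0.27, SD, n = 3) equalled that of the cpc ttg2-labelled arrays (5.84 ± 0.79). This call ended when cpc replicate 3, or replicate 1 or 3 of cpc ttg2, was left out (adjusted p up to 0.0862). NGA1 (AT2G46870), a B3-domain factor of leaf and flower shape, was 0.53 ± 0.16 higher (adjusted p = 0.0179), at 4.01, 3.85 and 5.38 in cpc and 4.59, 4.56 and 4.90 in the cpc ttg2-labelled arrays, against 3.70 to 4.49. The NGA1 call ended without cpc replicate 3 or cpc ttg2 replicate 3 (adjusted p up to 0.084), and with array weights. In cpc alone 0 of these 15 factors were called (background 1.94%), and HB-7 and TCP9 had adjusted p of 0.299 and 0.187 there.

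Of 6 listed channel and transporter genes, 4 were measured, and all 4 were called, 1 higher and 3 lower, beside a background of 35.7% (15% higher and 20.7% lower), although only 1 higher and 1 lower call was left with centred arrays and 2 lower with quantile normalization. Besides CNGC12, the lower ones were ZAT (AT2G46800), the vacuolar zinc transporter also called MTP1 (-0.62 ± 0.15, adjusted p = 0.00408, limma), and the plasma membrane aquaporin gene PIP1B (AT2G45960, -0.33 ± 0.11, adjusted p = 0.0225). The PIP1B call ended without cpc replicate 3 or cpc ttg2 replicate 1 (adjusted p up to 0.103). ABCB4 (AT2G47000), an auxin transporter of root epidermal cells, was 0.37 ± 0.13 higher (adjusted p = 0.0391). ABCB4 stood at 11.62, 11.64 and 11.64 in the cpc ttg2-labelled arrays, above the 21 others, while cpc (10.98, 11.33 and 11.27) lay within the range of 10.41 to 11.51. Leaving out any 1 of 12 arrays ended the call for ABCB4 (adjusted p up to 0.0979).

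Of 11 listed signalling and stress genes, all measured, 3 were higher, 2 lower and 6 did not pass (45.5% called, background 35.7%, with 15% higher and 20.7% lower). With centred arrays 4 were higher and 0 lower, and with quantile normalization 3 and 1. Besides AT2G45820 and JAR1, the higher one was ROPGAP3 (AT2G46710), an activator of GTP hydrolysis by ROP GTPases (0.82 ± 0.25, adjusted p = 0.0152, limma), a call that ended without cpc ttg2 replicate 2 (adjusted p = 0.0614). POL (AT2G46920), a protein phosphatase of stem cell control, was lower (-0.52 ± 0.18, adjusted p = 0.0336), and so was ABIL1 (AT2G46225), a subunit of the actin-regulating WAVE complex (-0.42 ± 0.13, adjusted p = 0.0207). The calls for POL and ABIL1 ended when the arrays were centred on their medians, and without any 1 of cpc replicate 3 and cpc ttg2 replicate 3, and for POL also without cpc replicate 2 and with quantile normalization. ROPGEF4 (AT2G45890), an activator of ROP GTPases in root hairs, differed by -0.73 ± 0.35 (95% interval -1.46 to 0.01, adjusted p = 0.11).

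Of 9 listed cytochrome P450 genes, 8 were measured, with 2 higher and 0 lower, both at low levels (25% called, background 35.7%, with 15% higher). With centred arrays 4 were higher. CYP76C4 (AT2G45550) was 0.71 ± 0.23 higher (adjusted p = 0.0216, limma), with no line mean above 4.10, and CYP709B1 (AT2G46960) 0.70 ± 0.21 (adjusted p = 0.017). Both calls ended without any 1 of cpc replicate 3 and cpc ttg2 replicate 3 (adjusted p up to 0.112 and 0.0955). The neighbouring CYP709B2 (AT2G46950) did not differ by test between the cpc-labelled lines and the others (-0.16 ± 0.24, adjusted p = 0.618) but did among the 6 other lines (F test, adjusted p = 0.00057, limma), from 8.20 ± 0.60 in wer to 10.99 ± 0.36 in ttg2 (SD, n = 3), with egl3 level with ttg2.

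Of 10 listed wall, lipid and redox genes, 9 were measured, with 3 higher and 0 lower (33.3% called, background 35.7%, with 15% higher). With centred arrays 4 were higher, and with quantile normalization 1. These were PAP14, AGP16 (AT2G46330), an arabinogalactan protein (0.60 ± 0.13, adjusted p = 0.00196, limma), and GulLO6 (AT2G46760), named as an L-gulono-1,4-lactone oxidase (0.42 ± 0.13, adjusted p = 0.0149). AGP16 was at 11.24, 10.91 and 10.57 in cpc and at 11.49, 11.30 and 11.36 in the cpc ttg2-labelled arrays, against 10.11 to 11.34 in the others. GulLO6 was no longer called without cpc ttg2 replicate 1 or cpc ttg2 replicate 3 (adjusted p up to 0.0601), nor with quantile normalization (adjusted p = 0.163). In cpc the difference of GulLO6 was 0.09 ± 0.17.

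Among members in no list, the largest lower difference was that of AT2G45730 (-1.23 ± 0.18, adjusted p = 8.72e-05, limma). It rested mainly on the cpc ttg2-labelled arrays, which stood at 8.12, 8.02 and 7.53, below the 21 others, while cpc stood at 9.53, 9.55 and 8.89 and the 18 others ran from 9.14 to 10.51. Lower too, besides AT2G46380, OXA1L, AT2G46580 and KPHMT1, were PPa3 (AT2G46860), named as a pyrophosphorylase (-1.07 ± 0.29), AT2G45860 (-0.96 ± 0.22), AT2G45710 (-0.91 ± 0.16), AT2G45700 (-0.90 ± 0.18), AT2G45750 (-0.84 ± 0.25) and AT2G46200 (-0.83 ± 0.16). These 6 had adjusted p from 0.000404 to 0.0137, and only AT2G45750 ended as a call when 1 array was left out, cpc ttg2 replicate 1 (adjusted p = 0.0616). On the higher side stood AT2G46630 (0.98 ± 0.31), AT2G46550 (0.90 ± 0.22) and AT2G46620 (0.68 ± 0.14), with adjusted p of 0.0188, 0.00458 and 0.00111. AT2G46630 ended as a call without any 1 of cpc replicate 3 and cpc ttg2 replicate 3 (adjusted p up to 0.096). The differences of AT2G45700, AT2G46200 and AT2G46620 also rested mainly on the cpc ttg2-labelled arrays, which lay outside the range of the 21 others. Their cpc arrays lay within the range of the 18 others. These were at 7.84, 7.91 and 7.27 for AT2G45700, 7.94, 7.74 and 7.61 for AT2G46200, and 10.02, 9.89 and 10.21 for AT2G46620.

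Between the 2 lines with the cpc label, 10 members differed, 5 higher and 5 lower in the cpc ttg2-labelled arrays (7.41%, background 9.1%, with 3.79% higher and 5.3% lower). The largest were AT2G45700 (-1.46 ± 0.31, adjusted p = 0.00756, limma) and AT2G45730 (-1.43 ± 0.30, adjusted p = 0.00818) on the lower side and AT2G46620 (1.22 ± 0.24, adjusted p = 0.00497) and AT2G46490 on the higher. AT2G46620 stood at 11.07, 11.42 and 11.29 in the cpc ttg2-labelled arrays and at 10.02, 9.89 and 10.21 in cpc, with ttg2 between them at 10.72 ± 0.03 (SD, n = 3) and the 5 other lines from 9.74 to 9.87. BRM (AT2G46020), the ATPase of a SWI/SNF chromatin remodelling complex, was 0.92 ± 0.20 higher (adjusted p = 0.0086), at 7.96, 8.40 and 7.82 against 7.30, 7.27 and 6.87. AT2G46200 (-1.23 ± 0.27) and AT2G45810 (-1.21 ± 0.25) were lower, with adjusted p of 0.0103 and 0.00721. Without cpc replicate 3 the count of 10 became 18 (13.9% of all genes), and with array weights 39 (25% of all genes).

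No member separated the 3 cpc arrays from all 21 others (background 0.382%), whereas 11 did so for the cpc ttg2-labelled arrays, 5 higher and 6 lower (8.15%, background 9.68%, with 3.85% higher and 5.83% lower). Besides ABCB4, AT2G45730, AT2G46620, AT2G46200, AT2G45810, AT2G45700, BRM and POL, the 11 held AT2G45990 (-0.58 ± 0.13 for both lines together), AT2G45820 and DTA2, the last 2 because these arrays lay above the cpc arrays as well. Leaving out cpc replicate 1 gave 2 separated members in cpc (1.6% of all genes), and leaving out cpc replicate 2 or ttg2 replicate 2 gave 1 (0.905% and 0.42%). Leaving out cpc replicate 3 gave 18, and cpc ttg2 replicate 3 gave 17, in the cpc ttg2-labelled arrays (13.8% and 13.1%). The single separations in egl3 and try amount to 0.741% of the members each, with backgrounds of 0.634% and 0.793%. The gl3, myb23, ttg2 and wer arrays were separated at 0 members, with backgrounds of 0.0933%, 0.07%, 0.0979% and 0.653%.

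Among the 6 lines without a cpc label, 3 members differed (F test, 2.22%, background 3.04%): AT2G45820, CYP709B2 and AT2G45870, which was low in ttg2 (3.73 ± 0.29, SD, n = 3) and wer (3.87 ± 0.26) and from 4.97 to 5.12 in the 4 others (adjusted p = 0.0211, limma). The count was 6 without egl3 replicate 1, 5 without egl3 replicate 2 or wer replicate 2, and 72 with array weights, where the shares over all genes were 3.39%, 2.99%, 3.47% and 48.8%. For the 53 members called between the cpc-labelled lines and the others, the line whose mean lay nearest to the cpc-labelled lines was ttg2 for 22 (41.5%) and wer for 14 (26.4%). Over all 7658 called genes ttg2 was nearest for 53.7% and wer for 14.4%.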

How the data were processed

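Per the labels, total RNA of sorted cells was made into biotin-labelled cRNA for Affymetrix arrays. The table deposited by the authors holds log2 expression values. The submitters' processing notes name RMA (robust multi-array average) as the method. Of its 21504 entries, 64 were array controls and stayed out of the tests. Array type and probe set definition were not given in the sources used. AT2G46790 was not analysed here. RMA compresses differences between dim genes and reduces changes shared by most genes. RefSeq (TAIR10.1) supplied the symbols of members, but for AT2G45220 and AT2G45290 its symbol was the code, so PME17 and TKL2 are not its symbols. All 135 members matched, and 71 had a symbol other than their code. Its order of genes was used, not its coordinates.

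Line means were estimated jointly over 24 arrays and 21440 genes in R 4.3.3 using lmFit and eBayes of limma 3.58.1, with 2-sided tests and p-values adjusted by the Benjamini-Hochberg method. The contrasts were the mean of cpc and cpc ttg2 minus the mean of the 6 other lines, each of these lines minus the same 6, and cpc ttg2 minus cpc. An F test covered the 6 other lines. Separation of arrays was counted without a test. The fit was tested on simulated data. Precision is limited by the number of arrays.

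The members, lists and tests were chosen with earlier results of these data known. Named were all separated members, the 12 largest called differences per direction, the 5 measured neighbours of CPC per side, up to 5 members per direction separated in 1 cpc-labelled line, and up to 3 called members per direction of each list. NGA1, ROPGEF4, CYP709B2, AT2G45870, AT2G45990 and AT2G46040 were named after their values were seen. Same-numbered arrays of the compared lines deviated together (correlation over 0.1) in 14 of 39 pairs, so the numbers were not taken to pair the arrays. Alternatives changed the scaling, the filter, the weights, the block, the window or the arrays.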

Additional observations from a re-analysis of the deposited data

How the results depend on the processing

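The count of flanking genes called between both cpc-labelled lines and the 6 others (53) ran from 34 to 59 with 1 array left out. The shares over all genes in those runs were 23.1% and 41.3%. For codes from AT2G46000 to AT2G46800 only, a shorter stretch with fewer members, it was 27, under the same background of 35.7%. At an adjusted p under 0.01 it was 29, for which the share over all genes is not given here. For cpc alone (4) the range was 1 to 6 (0.462% or 0.919%, and 2.41% of all genes). For the cpc ttg2-labelled arrays (48) it was 39 to 52 (26.3% and 41.3% of all genes), with 80 when arrays were centred on their medians (50% of all genes). For cpc ttg2 against cpc (10) it was 7 to 18 (3% and 13.9% of all genes). For the F test among the 6 other lines (3) it was 2 to 6 (1.67% to 2.43%, and 3.39% of all genes). With array weights, whose estimate stopped before it converged, these counts were 39 for cpc, 39 for cpc ttg2 against cpc and 72 for the F test, beside 24.2%, 25% and 48.8% of all genes. With the replicate number as a block the F test gave 5 members and the comparison of both lines 57, and the block changed no other count of members by over 1.5 times. Of the 24 arrays, 12 correlated best with arrays of their own number.

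Leaving out an array or a line cannot end a full separation, so counts of separated members could only stay or rise in those runs. The same holds for 1 array allowed on the wrong side. The 3 separated members became 3 or 4 with 1 array left out, 5 without the ttg2 line and 6 with 1 array allowed on the wrong side. They became 2 (AT2G45820 and DTA2) with quantile normalization and 0 for codes from AT2G46000 to AT2G46800. In runs chosen after seeing the data, 20 members were separated without the cpc line. Members separated in cpc alone (0) ranged from 0 to 2, with 1 without the ttg2 line, and in the cpc ttg2-labelled arrays (11) from 11 to 18. The counts around TRY (45) and MYB23 (47) ranged from 32 to 55 and from 33 to 54, and the difference of CPC from -0.85 to -0.65. Of 41 named members, WRKY46 changed sign with centred arrays and AT2G46375 with quantile normalization, and neither was called.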

Other observations

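Just outside the stretch, on the lower side, 3 further genes of chromosome 2 separated the 6 cpc-labelled arrays from the 18 others; they were chosen after their values were seen. PME17 (AT2G45220), named as a pectin methylesterase, lay between 10.26 and 10.92 in the 6 arrays and between 5.19 and 9.74 in the others, a difference of 2.23 (adjusted p = 1.71e-06, limma). PME17 also differed among the 6 other lines (F test, adjusted p = 4.57e-05, limma), from 5.97 ± 0.79 in wer, below the 21 other arrays, and 7.64 ± 0.43 in egl3 to 9.43 ± 0.44 in ttg2 (SD, n = 3). TKL2 (AT2G45290), named as a transketolase, lay between 8.79 and 9.23 against 7.62 to 8.73, a difference of 0.80 (adjusted p = 5.91e-05). AT2G45010 was lower, between 8.77 and 9.21 against 9.42 to 10.31 (-0.73, adjusted p = 9.03e-05). With AT2G45820 and DTA2 they made 5 separated genes at positions -120, -103, -98, -53 and -52, counted in measured genes from CPC. The next separated gene at lower codes was AT2G35050 at position -979. Over all genes 0.415% were separated. The bounds of this group were set by the separated genes themselves, so no share is given for it. PME17 and AT2G45820 also differed among the 6 other lines. Whether the 5 lie on a linked segment was not tested.

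Chromosome 2 held 23 of the 89 separated genes among its 3493 measured genes, and chromosome 5 held 31 among 4904. Chromosomes 1, 3 and 4 held 9, 15 and 11 among 5530, 4262 and 3171, and the share over all genes was 0.415%. The largest differences among the 23 lay far from CPC, with AT2G15555 6.4 higher, AT2G15760 3.67 higher and AT2G15000 lower (-3.22), at positions -2621, -2603 and -2660. At the edges of the stretch, AUR3 (AT2G45490), an Aurora kinase gene just outside, was lower (-1.14, adjusted p = 0.00125), AT2G45500 just inside was 0.53 higher (adjusted p = 0.008), and at the other end ABCB4 inside was followed by AT2G47010 outside (0.20, adjusted p = 0.639).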
